A study of Bos taurus and Bos grunniens and Bubalus bubalis with 15 samples.

Results

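The genes described here encode proteins of the basement membrane, together with SPARC, a secreted glycoprotein that binds collagen. They were listed by name as COL4A1, COL4A2, LAMA4, NID2 and SPARC, and every probe set whose annotation gives 1 of these symbols was taken. The list was chosen by measured values, since it was drawn up with differences between the cattle groups on these arrays in view, NID2 in females against intact males among them, and no single value is recorded as the reason for each gene. That gave 6 probe sets for 4 of the 5 genes, among 24016 probe sets and 9155 genes with a single symbol. COL4A1 (NCBI gene 282191) and LAMA4 (529670) had 2 probe sets each, NID2 (521854) and SPARC (282077) 1 each, and no probe set was annotated as COL4A2. In the RefSeq gene table of the ARS-UCD2.0 assembly COL4A1 and COL4A2 lie next to each other with 0 genes between them. All 6 probe sets passed the filter on dim probe sets.

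The tissue was longissimus dorsi, a back muscle, from animals of 36 months. The 15 animals formed 5 groups of 3, namely Guangxi buffalo, Qinghai yak, and female, castrated male and intact male Qinchuan cattle, a Chinese beef breed. The cattle were close in birth date and genetic background and were kept under the same conditions. The sources used here do not state the sex of the yak and buffalo or the age at castration. One Affymetrix bovine array was used per animal, and the values are probe set intensities on a linear scale. There is no read depth, so the number of arrays limits the precision. Differences are between means of log2(intensity + 16), with their SE.

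Basement membranes are thin sheets of extracellular matrix. In skeletal muscle they wrap each fibre and underlie the endothelium of each capillary. Type IV collagen and laminin each assemble into a network, and nidogens and the proteoglycan perlecan connect the networks. COL4A1 encodes the alpha 1 chain of type IV collagen, which combines with the alpha 2 chain from COL4A2. LAMA4 encodes the laminin alpha 4 chain, found in vessel walls and around other mesenchymal cells. NID2 encodes nidogen-2, a linker between laminin and type IV collagen. SPARC, also called osteonectin, binds fibrillar and type IV collagens and is made in abundance where matrix is being deposited.

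Median log2 values ran from 6.71 to 6.81 over the arrays. All 9 measured muscle fibre markers gave signal, with summed intensities of 98754 to 123852 across the 15 arrays. No pair of arrays held identical values. Across all probe sets, intact male 1 correlated least with the other arrays of its group (mean r 0.960), and intact male 3 correlated less with its own group (0.968) than with the other cattle (0.977). Values without these arrays are therefore given beside the results that use intact males.

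SPARC spanned the widest range of the 4 genes. Its intensity was 287, 375 and 497 in buffalo, 421, 613 and 513 in yak, 1088, 1649.9 and 1289 in females, 1409.8, 1994 and 1363 in castrated males, and 7711, 5662 and 4853 in intact males. Every intact male array lay above every castrated male and female array, and all of those lay above every yak and buffalo array. The group means differed by up to 3.93 on the log2 scale, against a pooled SD within groups of 0.32. Females and castrated males overlapped, as did buffalo and yak.

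COL4A1 stood in another pattern, with the 3 cattle groups overlapping. Its brighter probe set read 598, 980.2 and 1271 in buffalo and 1031, 1453 and 981 in yak. The same probe set read 1684, 2631 and 2677 in females, 2809, 3651 and 2362 in castrated males, and 3980.0, 3891 and 2626 in intact males. The dimmer probe set read 425, 446 and 413 in buffalo, 216, 435 and 392 in yak, 588, 848 and 859 in females, 734, 940.5 and 628 in castrated males, and 859, 1246 and 589 in intact males. With both probe sets the lowest cattle array lay above the highest yak and buffalo array.

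NID2 and LAMA4 lay between these patterns. NID2 read 77.5, 228 and 214 in buffalo, 139, 206 and 148 in yak, 279.5, 276 and 299 in females, 335, 431 and 271 in castrated males, and 927, 580.5 and 543 in intact males. The brighter LAMA4 probe set read 137, 143 and 204 in buffalo, 127, 150.1 and 137 in yak, 309, 290.4 and 219 in females, 259, 264 and 204 in castrated males, and 362, 511 and 345 in intact males. In both genes the intact males stood above the other cattle without overlap. The dimmer LAMA4 probe set read 33.1, 50.6 and 81.5 in buffalo, 77.1, 95.8 and 76.4 in yak, 177, 208 and 124 in females, 176, 193 and 139 in castrated males, and 233, 344 and 239 in intact males. In buffalo its mean was 6.09 on the log2 scale, the 1 of 30 group means that lay below the filter value of 6.42, so its buffalo level is the least certain. For every probe set the intact males had the highest group mean, and buffalo and yak the lowest pair, in either order and with overlapping arrays.

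**Figure D1:**
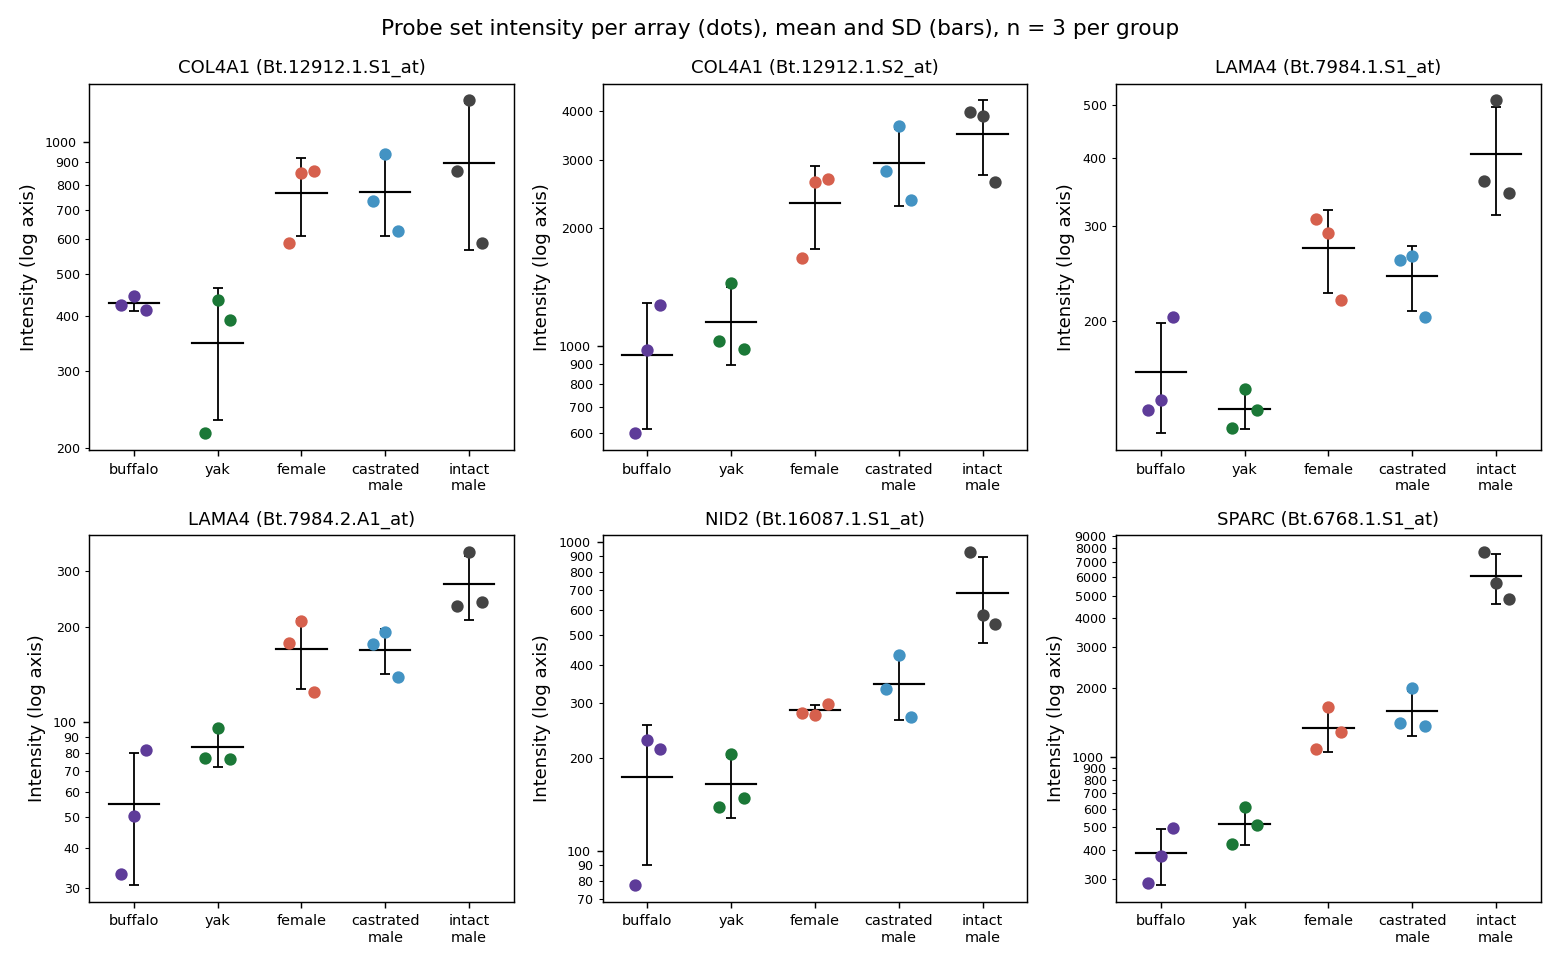
Intensity of the 6 probe sets on a log axis, with 1 dot per array and the mean ± SD of the 3 arrays of each group (buffalo, yak, female, castrated male, intact male); the brighter COL4A1 probe set ends in S2_at and the brighter LAMA4 one in S1_at. SPARC shows 3 separate levels, from 287 to 613 in buffalo and yak, from 1088 to 1994 in females and castrated males, and from 4853 to 7711 in intact males, while COL4A1 separates cattle from yak and buffalo only.

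The design text asks which genes differ among the cattle by gender. The 5 genes were listed with these differences from intact males known, so they are given as a description, and no p-value against intact males is read as support. SPARC averaged 1589 ± 352 in castrated males and 6075 ± 1473 in intact males (SD, n = 3 each), which is 3.78-fold lower on the offset scale (log2 difference -1.92, SE 0.23). NID2 averaged 345 ± 80.5 in castrated males and 684 ± 212 in intact males (-0.94, SE 0.23). LAMA4 differed by -0.70 (SE 0.19) and -0.62 (SE 0.21) with its brighter and dimmer probe sets. COL4A1 differed by -0.18 (SE 0.28) with the dimmer and -0.25 (SE 0.24) with the brighter probe set, each within its spread. The order was SPARC, NID2, LAMA4 and COL4A1 from the largest to the smallest difference.

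Of the 6 probe sets, 4 had castrated male arrays all below the intact male arrays, where 13.5% of all 14409 probe sets tested did and 11.3% lay above without overlap. SPARC alone of the 6 passed limma's threshold, where 0.840% of all were lower and 0.625% higher. These values chose the genes, so nothing is read from either count. The median over the 6 was -0.66, against 0.00 over all tested. Leaving out intact male 1 gave -1.73 (SE 0.22) for SPARC and -0.70 (SE 0.18) for NID2. Leaving out intact male 3 gave -2.07 (SE 0.24) and -1.08 (SE 0.24).

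Females also stood below intact males, in a comparison that shares its intact male arrays with the one above. SPARC averaged 1342 ± 285 in females and 6075 ± 1473 in intact males, 4.46-fold lower (-2.16, SE 0.23). NID2 averaged 285 ± 12.1 in females and 684 ± 212 in intact males (-1.18, SE 0.23). LAMA4 differed by -0.54 (SE 0.19) and -0.64 (SE 0.21), and COL4A1 by -0.18 (SE 0.28) with the dimmer and -0.59 (SE 0.24) with the brighter probe set. Of the 6 probe sets, 4 did not overlap and were lower in females, where 17.4% of all did and 15.7% were higher without overlap, and 2 of 6 passed limma's threshold, where 3.37% of all were called lower and 2.12% higher. Nothing is read from these counts either, since NID2 in this comparison was among the values that drew up the list. The median over the 6 was -0.61, against 0.01 over all tested. Without intact male 1, SPARC differed by -1.97 and NID2 by -0.94, and without intact male 3 by -2.31 and -1.32.

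Females and castrated males were not told apart by any of the 6 probe sets. SPARC averaged 1342 ± 285 in females and 1589 ± 352 in castrated males, a log2 difference of -0.24 (SE 0.23, adjusted p = 0.843). The brighter COL4A1 probe set had the largest difference of the 6, -0.34 (SE 0.24, adjusted p = 0.792). In limma 0 of 6 were called in either direction and 0 had an unadjusted p under 0.05, where 0.0139% of all probe sets were called higher in females and 0.00694% lower. All 6 overlapped between the groups, where 8.90% of all lay higher and 8.56% lower in females without overlap. A p above the threshold does not show that the groups are alike.

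**Figure D2:**
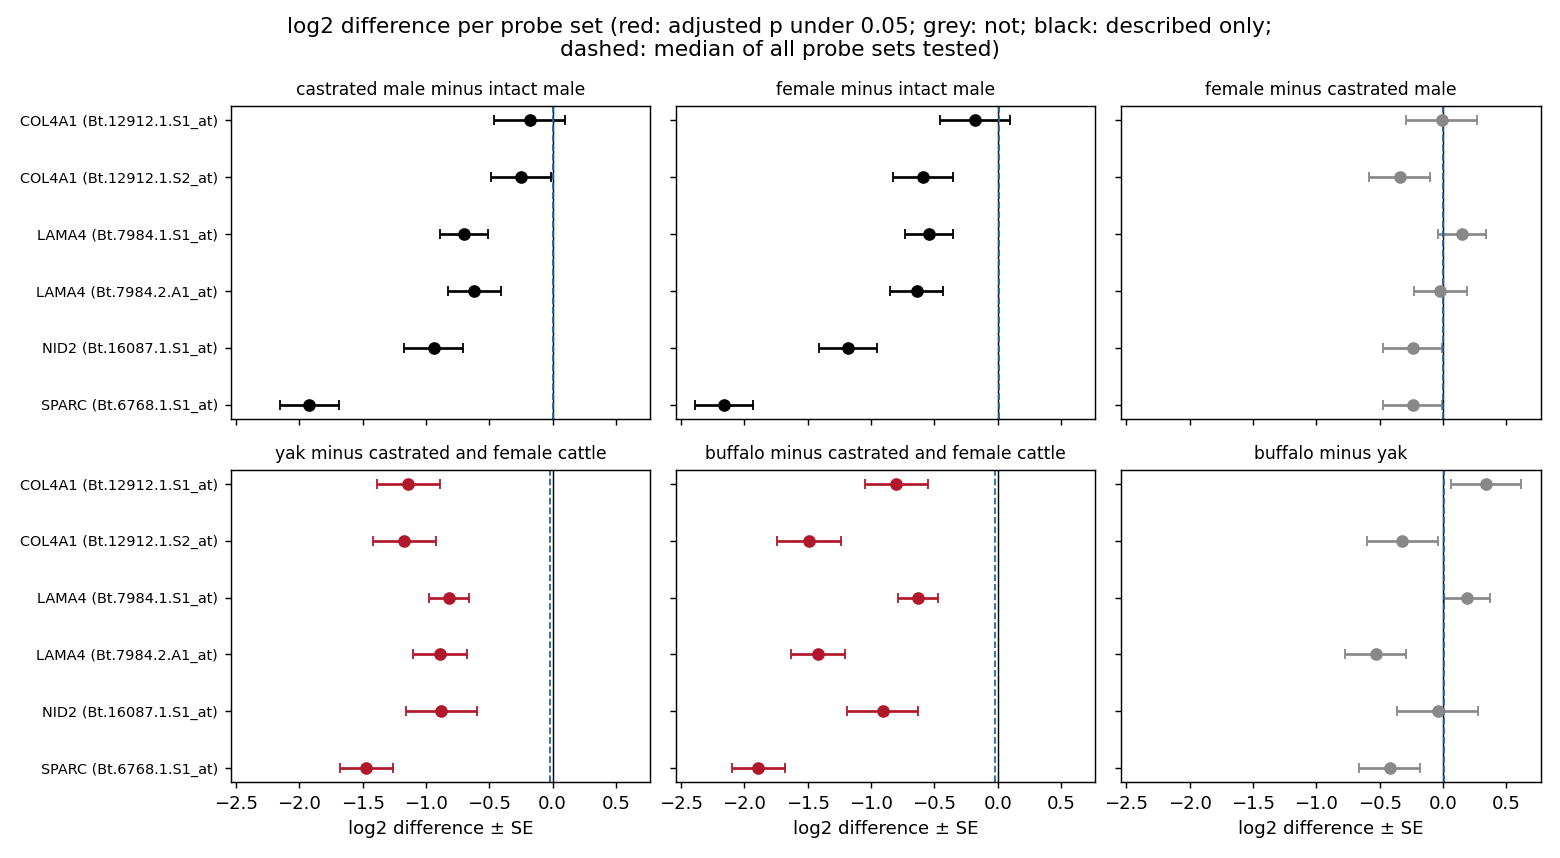
log2 difference ± SE of the 6 probe sets in 6 comparisons, with the median of all tested probe sets as a dashed line. All 6 points lie below 0 in yak and in buffalo against castrated and female cattle, and SPARC lies farthest to the left in these and in castrated males and females against intact males. Points against intact males are drawn as a description only.

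Yak muscle had lower signal than castrated and female cattle with all 6 probe sets. The cattle value in this comparison is the mean of the castrated male and female groups, since the intact males stand apart and their spread is large. SPARC averaged 515 ± 96.3 in yak, against 1342 ± 285 in females and 1589 ± 352 in castrated males (log2 difference -1.47, SE 0.21, adjusted p = 0.000413). COL4A1 fell by 1.14 (SE 0.25, adjusted p = 0.00549) with the dimmer probe set and by 1.17 (SE 0.25, adjusted p = 0.00490) with the brighter one. The brighter and dimmer LAMA4 probe sets fell by 0.82 (SE 0.16, adjusted p = 0.00311) and 0.89 (SE 0.21, adjusted p = 0.00812). NID2 averaged 164 ± 36.4 in yak, against 285 ± 12.1 in females and 345 ± 80.5 in castrated males (-0.88, SE 0.28, adjusted p = 0.0362). That call was lost when any 1 of the arrays compared other than castrated male 3 was left out, with an adjusted p of 0.0527 to 0.150 and differences of -1.04 to -0.78. It was also lost after quantile normalisation (-0.83, adjusted p = 0.0534) and against females alone (-0.75, adjusted p = 0.124).

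All 6 probe sets were called lower in yak, where 11.6% of all tested probe sets were, and in all 6 the 3 yak arrays lay below the 6 cattle arrays, where 14.7% of all did and 12.2% lay above. The median of the 6 differences was -1.02, against -0.02 over all tested. The list was drawn up with earlier results of these arrays in view, so the adjusted p-values describe these probe sets and are not independent support for the choice. Against intact males, the log2 differences of yak were larger, at -3.51 (SE 0.24) for SPARC, -1.93 (SE 0.32) for NID2, -1.44 and -1.53 for LAMA4 and -1.32 and -1.58 for COL4A1. The probes were designed on cattle sequence, so less transcript and weaker binding of yak or buffalo transcript cannot be told apart here. The same holds for fewer cells of a type and less RNA per cell. RNA integrity, read as the signal of 3' over 5' actin probes, was 1.49 to 1.93 in yak, against 1.22 to 1.33 in females and 1.24 to 1.27 in castrated males, and its part in the result was not tested.

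Buffalo muscle also had lower signal than castrated and female cattle with all 6 probe sets. SPARC averaged 386 ± 105 in buffalo, against 1342 ± 285 in females and 1589 ± 352 in castrated males (log2 difference -1.89, SE 0.21, adjusted p = 9.68e-06). COL4A1 fell by 0.80 (SE 0.25, adjusted p = 0.0160) with the dimmer and by 1.49 (SE 0.25, adjusted p = 0.000267) with the brighter probe set. LAMA4 fell by 0.63 (SE 0.16, adjusted p = 0.00535) and 1.42 (SE 0.21, adjusted p = 9.07e-05). NID2 averaged 173 ± 82.9 in buffalo (-0.91, SE 0.28, adjusted p = 0.0143). Without buffalo 1, its lowest array, NID2 differed by -0.47 (adjusted p = 0.0918), and against females alone by -0.79 (adjusted p = 0.0588). The dimmer COL4A1 probe set lost its call without buffalo 3 (-0.77, adjusted p = 0.0528) and after quantile normalisation (-0.60, adjusted p = 0.0511).

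Of the 6 probe sets called lower in buffalo, where 26.5% of all tested were, 5 had buffalo arrays below all 6 cattle arrays, where 24.1% of all did and 18.4% lay above. The brighter LAMA4 probe set overlapped, with buffalo 3 and castrated male 3 both at 204. The median of the 6 was -1.17, against -0.02 over all tested. Against intact males the log2 differences were -3.93 (SE 0.24) for SPARC, -1.97 (SE 0.32) for NID2, -1.25 and -2.06 for LAMA4 and -0.98 and -1.90 for COL4A1. The actin measure was 1.42 to 1.73 in buffalo, above every female and castrated male array, and its part in the result was not tested.

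Buffalo and yak were not told apart by these genes in limma. The dimmer LAMA4 probe set had the largest difference, with 55.0 ± 24.5 in buffalo and 83.1 ± 11.0 in yak (-0.53, SE 0.24, adjusted p = 0.0873). SPARC differed by -0.42 (SE 0.24, adjusted p = 0.180) and NID2 by -0.04 (SE 0.32, adjusted p = 0.936). In all 0 of 6 were called, with 1 at an unadjusted p under 0.05, where 19.5% of all tested probe sets were called higher and 22.7% lower in buffalo. All 6 overlapped, where 26.7% of all lay higher and 28.5% lower in buffalo without overlap. The dimmer LAMA4 probe set was called after quantile normalisation (-0.63, adjusted p = 0.0472) and without buffalo 3 (-0.79, adjusted p = 0.0163).

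COL4A1 and LAMA4 each had 2 probe sets, which read the RNA of 1 gene with different probes. The gap between them on each array is given as a description. In COL4A1 the brighter probe set stood 0.48 to 1.58 above the dimmer one in buffalo, on the log2 scale, 1.29 to 2.17 in yak, 1.49 to 1.62 in females, 1.88 to 1.94 in castrated males and 1.63 to 2.19 in intact males. Against the 6 castrated and female arrays the gap was narrower by 0.69 in buffalo. In LAMA4 the dimmer minus the brighter probe set was -1.64 to -1.17 in buffalo, -0.73 to -0.57 in yak, -0.75 to -0.45 in females, -0.52 to -0.42 in castrated males and -0.60 to -0.50 in intact males. Its gap differed by -0.79 in buffalo, where the mean of the dimmer probe set, 6.09, lay below the filter value. In yak the gaps differed by -0.02 for COL4A1 and -0.07 for LAMA4. These gaps were examined after the values of the single probe sets were seen, and what moves them was not tested.

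**Figure D3:**
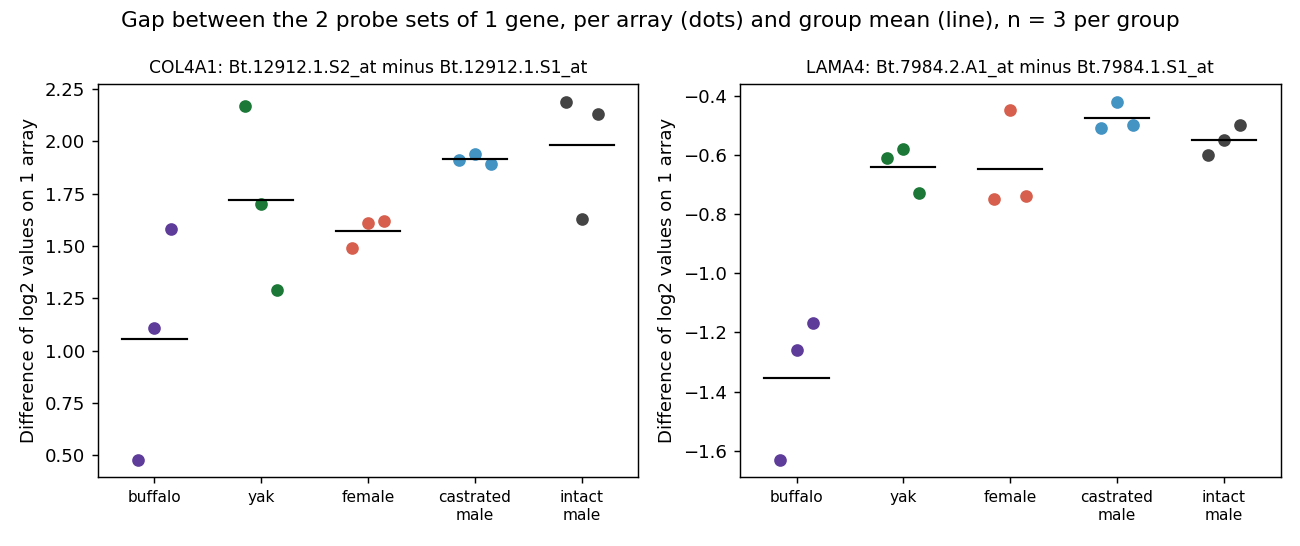
Gap between the 2 probe sets of COL4A1 and of LAMA4 on each array, as a difference of log2 values, with the group mean as a line. The buffalo arrays of LAMA4, at -1.64 to -1.17, lie below all others, and the mean COL4A1 gap is 1.06 in buffalo, against 1.58 in females and 1.91 in castrated males.

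Other laminin chains changed in part. Of 10 chains listed, 4 had a probe set. LAMB2, the beta 2 chain found in the muscle fibre basement membrane at the nerve contact, fell in yak by 0.92 (SE 0.17, adjusted p = 0.00203). LAMB3, a chain of epithelial laminin, rose in yak by 0.32 (SE 0.10, adjusted p = 0.0435), where 10% of all probe sets rose. In buffalo LAMB1 and LAMC1, chains of the common laminins, fell by 0.89 (SE 0.18, adjusted p = 0.00106) and 0.62 (SE 0.14, adjusted p = 0.00267). The list's median was -0.33 in yak and -0.44 in buffalo. It was -0.18 in castrated males against intact males, with 1 of 4 below without overlap, where 13.5% of all did.

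Of 17 other basement membrane proteins listed, 10 had a probe set and 7 passed the filter on dim probe sets. HSPG2, which encodes perlecan, averaged 715 ± 64.8 in yak, against 1360.1 ± 178 in females and 1204 ± 279 in castrated males (-0.81, SE 0.17, adjusted p = 0.00441). In buffalo it averaged 631 ± 145 (-1.01, SE 0.17, adjusted p = 0.000286). SMOC2, a relative of SPARC, averaged 100.2 ± 11.1 in yak and 27.6 ± 3.26 in buffalo, against 273 ± 100 in females and 224 ± 42.4 in castrated males. Its log2 differences were -1.14 (SE 0.27, adjusted p = 0.00880) in yak and -2.55 (SE 0.27, adjusted p = 5.84e-06) in buffalo. The buffalo arrays of SMOC2 read 24.9 to 31.3, dimmer than the 33.1 to 81.5 of the dimmer LAMA4 probe set. The mean of that LAMA4 probe set in buffalo already lay below the filter value. The size of the SMOC2 difference in buffalo is therefore uncertain. In all 3 of 7 fell in yak, where 11.6% of all probe sets fell, the third being COL15A1, a collagen of the outer basement membrane, and 5 of 7 in buffalo, with NID1 and FBLN1 beside HSPG2, SMOC2 and COL15A1, where 26.5% of all fell. The medians were -0.30 and -0.74. NID1, the other nidogen, differed by -0.30 (SE 0.16, adjusted p = 0.208) in yak and fell by 0.74 (SE 0.16, adjusted p = 0.00225) in buffalo. SPARCL1, the closest relative of SPARC on the array, differed by -0.16 (SE 0.19) in yak and -0.29 (SE 0.19) in buffalo and passed in neither.

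Against intact males, FBLN1, or fibulin-1, a glycoprotein that binds basement membrane and elastic fibres, had the largest difference in that list. It averaged 562 ± 169 in castrated males and 1529.8 ± 366 in intact males (-1.44, SE 0.25), without overlap. NID1 differed by -0.37 (SE 0.18), HSPG2 by -0.62 (SE 0.19) and SPARCL1 by 0.03 (SE 0.24). The list's median was -0.51 in castrated males and -0.18 in females, each against intact males.

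Of 17 genes listed as basement membrane receptors, not all of them particular to muscle fibres, 10 had a probe set and 7 passed the filter on dim probe sets. DAG1, or dystroglycan, a laminin receptor, averaged 1441 ± 101 in yak and 1593 ± 114 in buffalo, against 2545 ± 95.4 in females and 2469 ± 331 in castrated males. It fell by 0.79 (SE 0.10, adjusted p = 0.000209) in yak and by 0.65 (SE 0.10, adjusted p = 0.000199) in buffalo. SGCA, a sarcoglycan of the same complex, differed by -1.31 (SE 0.16, adjusted p = 2.67e-05) in buffalo and by -0.26 (SE 0.16, adjusted p = 0.284) in yak. The buffalo minus yak difference of SGCA was -1.05 (SE 0.19, adjusted p = 0.000624). Of 7 receptors tested, 2 fell in yak, where 11.6% of all probe sets fell, and 6 in buffalo, where 26.5% did, with medians of -0.26 and -0.72. In buffalo minus yak 3 of 7 were called lower, where 22.7% of all were. In castrated males against intact males the median was -0.05, and 1 of 7 lay below without overlap, where 13.5% of all did.

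Genes that fold, crosslink or degrade type IV collagen also fell in part. Of 14 tested, 3 fell and 0 rose in yak, where 11.6% of all probe sets fell. In buffalo 6 fell and 1 rose, where 26.5% of all fell and 21.7% rose. MMP2, a gelatinase that cleaves type IV collagen, fell by 0.69 (SE 0.19, adjusted p = 0.0201) in yak and by 1.19 (SE 0.19, adjusted p = 0.000213) in buffalo. MMP9 of the same list fell by 0.76 (SE 0.14, adjusted p = 0.00263) in yak. Its yak mean, 52.1 ± 6.64, was as dim as that of the dimmer LAMA4 probe set in buffalo, 55.0 ± 24.5. In buffalo MMP9 was the 1 that rose, by 0.50 (SE 0.14, adjusted p = 0.0116). P4HA1, a prolyl hydroxylase subunit needed for a stable triple helix, fell in buffalo by 2.16 (SE 0.24, adjusted p = 9.67e-06). The medians were -0.32 in yak and -0.48 in buffalo.

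Collagens outside the basement membrane were set beside the 4 genes, since SPARC binds fibrillar collagens. The 8 tested are fibrillar chains together with COL6A1, COL6A2 and COL12A1, which are not fibrillar. Their differences from intact males are a description, as above. COL3A1, the type III chain of soft tissue, differed by -1.93 (SE 0.17) in castrated against intact males, as SPARC did at -1.92 (SE 0.23), and the type I chains COL1A1 and COL1A2 by -2.92 (SE 0.22) and -2.76 (SE 0.18). In yak COL3A1 fell by 2.23 (SE 0.30, adjusted p = 0.000250) and COL1A1 by 0.54 (SE 0.17, adjusted p = 0.0354), while COL1A2 fell by 1.70 (SE 0.29, adjusted p = 0.00121). In buffalo COL3A1 fell by 1.52 (SE 0.30, adjusted p = 0.000941), while COL1A1 averaged 467 ± 47.3, against 482 ± 96.3 in females and 500.4 ± 54.8 in castrated males (-0.06, SE 0.17, adjusted p = 0.779). Its partner chain COL1A2 averaged 349 ± 205 in buffalo, against 817 ± 155 in females and 1088 ± 145 in castrated males (-1.55, SE 0.29, adjusted p = 0.000608). Of the 8, 5 fell in yak and 4 in buffalo, COL6A1 among both, where 11.6% and 26.5% of all probe sets fell, with medians of -0.72 and -0.60.

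**Figure D4:**
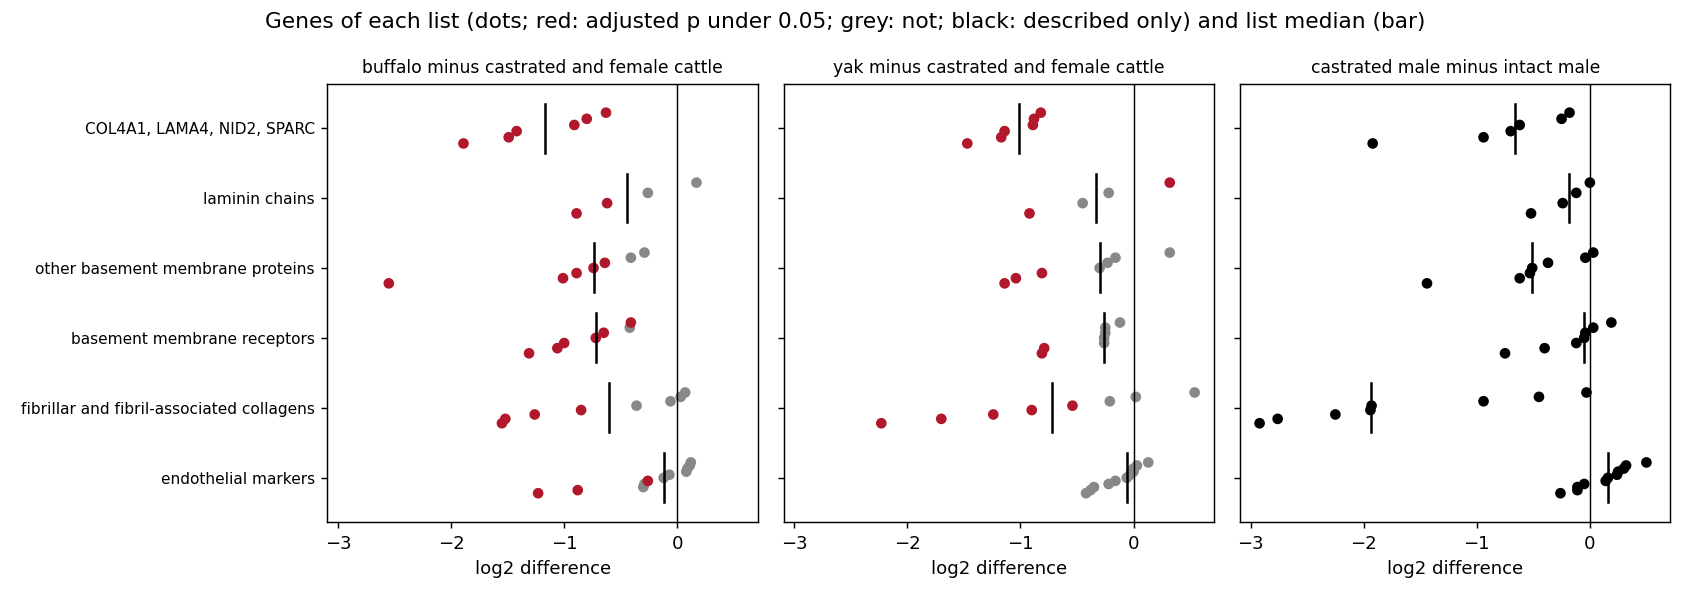
log2 differences of single genes, by list, in buffalo and yak against castrated and female cattle and in castrated against intact males. The bars are list medians: those of the 6 probe sets are -1.17, -1.02 and -0.66, those of the endothelial markers -0.12, -0.06 and 0.16, and those of the fibrillar and fibril-associated collagens -0.60, -0.72 and -1.93.

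Markers of the cell types that make basement membrane were measured beside these genes. Of 13 endothelial markers with a probe set, 0 were at zero signal, and their summed intensity was 3003 to 3397 in buffalo, 3137 to 4086 in yak, 3450.1 to 4581 in females, 3192 to 4086 in castrated males and 2601 to 4233 in intact males. In limma 0 of 11 tested were called in yak (0 at an unadjusted p under 0.05). Of all probe sets, 11.6% fell and 10% rose in yak. In buffalo 3 of 11 fell, where 26.5% of all probe sets fell. In castrated against intact males 0 of 11 did not overlap, where 13.5% of all lay lower and 11.3% higher without overlap. Of 10 pericyte and smooth muscle markers, 1 rose and 1 fell in yak, where the same 10% of all rose and 11.6% fell. In buffalo 5 of the 10 fell, against the same 26.5% of all. Their sums were 8581 to 10755 in buffalo, 12027 to 13838 in yak, 12388 to 13791 in females, 12061 to 17160.0 in castrated males and 12079 to 15285 in intact males. DES was the largest part of these sums. It averaged 5729 ± 916 in buffalo, 7928 ± 752 in yak, 7425 ± 324 in females and 8164 ± 2155 in castrated males. DES was among those that fell in buffalo (-0.44, SE 0.15, adjusted p = 0.0268), as was RGS5 (-2.27, SE 0.22, adjusted p = 3.26e-06).

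The summed fibroblast and macrophage markers were highest in intact males, but not every single fibroblast marker was. The sum of 12 fibroblast markers, among them type I and III collagen chains, was 4519 to 7156 in buffalo, 5942 to 7889 in yak, 10159 to 12999.9 in females, 13746 to 14653 in castrated males and 35928 to 49211 in intact males. As a description, 10 of these 12 lay lower without overlap in castrated against intact males, where 13.5% of all did. PDGFRA and THY1 were not lower there, with differences of 0.18 (SE 0.23) and 0.08 (SE 0.15). Of the 12, 7 fell in yak and 8 in buffalo, where 11.6% and 26.5% of all probe sets fell. The sum of 13 macrophage markers was 1148 to 1604 in buffalo, 1770.2 to 1865 in yak, 1448 to 2640.4 in females, 2641 to 4282 in castrated males and 6415 to 32488 in intact males. The high end was intact male 1. Adipocyte marker sums were 2910.3 to 5433 in buffalo, 968 to 1597 in yak and 2479 to 5345 in castrated males and females together. Of 7 tested, 2 rose in buffalo (LEP and LPL) and 2 fell (CIDEC and ADIPOQ), where 21.7% of all rose and 26.5% fell. LPL averaged 3032 ± 1606 in buffalo, against 815 ± 182 in females and 1196 ± 227 in castrated males. ADIPOQ averaged 37.8 ± 12.4 in buffalo, against 255 ± 122 in females and 166 ± 95.5 in castrated males. In yak 3 of the 7 fell and 0 rose, where 11.6% of all fell. Schwann cell marker sums were 3185 to 3645 in buffalo, 1963 to 2759.9 in yak and 1280.4 to 2387 in castrated males and females together. S100B made up most of these sums, with means of 3178 in buffalo, 2240.0 in yak, 1524 in females and 1397 in castrated males. In yak S100B did not pass (0.63, SE 0.22, adjusted p = 0.0599). There NGFR differed by -0.20 (SE 0.09) and MBP fell by 0.99 (SE 0.28, adjusted p = 0.0217). In buffalo 2 of 3 tested, S100B and NGFR, rose, where 21.7% of all did. The part of these cell types in the differences of SPARC, NID2, LAMA4 and COL4A1 was not tested.

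The genes most like the 4 in profile were sought over the 15 arrays, with each gene represented by its brightest probe set and the 4 profiles averaged. Among 9107 probe sets the highest Pearson correlations were those of COL6A1 (0.982), DAP (0.979), PCOLCE (0.977), TNFRSF1A (0.969) and CFL1 (0.967). COL6A1 encodes a chain of type VI collagen, which lies against basement membranes in muscle, and PCOLCE an enhancer of procollagen cleavage. COL6A1 averaged 703 ± 305 in buffalo, 673 ± 92.0 in yak, 1500.1 ± 278 in females, 1749 ± 327 in castrated males and 3454 ± 1149 in intact males. The 15 arrays fall into 5 groups and share a platform and scaling. After subtraction of the group means the 5 highest were SHC1 (0.919), STK38 (0.918), ACTN4 (0.918), DKK3 (0.914) and NDRG4 (0.907).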

How the data were processed

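Total RNA was extracted with Trizol and 6 µg was made into biotinylated cRNA for an Affymetrix bovine array, per the labels' protocols. The authors deposited 1 linear intensity per probe set and array, and the sources used here name no software, background correction or normalisation. The 112 control probe sets of 24128 were set aside, 16 was added, and log2 taken without further normalisation. A filter kept the 14409 probe sets whose mean over 15 arrays exceeded 6.42, the 40th percentile. Gene symbols came from the platform annotation. Tests used limma 3.58.1 under R 4.3.3 (empirical Bayes with a trend in mean intensity). Comparisons among cattle used the 9 cattle arrays and the others all 15. P-values are two-sided and Benjamini-Hochberg adjusted over all 14409, with a threshold of 0.05. Replicates are biological, per the labels.

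The genes and lists were chosen with earlier results of these data known. Every member probe set is named; from the other lists up to 4 called genes with the smallest p per comparison were eligible to be named, with COL1A1 and COL3A1 as comparators. Members or list genes that did not pass, such as NID1 and SPARCL1 in yak, were added after their values were seen. Each gene of a list is represented by its brightest probe set. The fits were tested on simulated data with changes planted in a small share of probe sets. The noise was normal, independent between probe sets and of the same SD in all groups. Over the comparisons, 65.0% to 82.0% of 2-fold and 21.0% to 55.0% of 1.5-fold changes were recovered. Of the calls, 5.59% to 10.7% were wrong, the most in buffalo against yak. In the species comparisons of the real data many more probe sets were called. The simulated rates are therefore not those of the calls reported above. Probe set gaps, intact males as the only cattle and subtraction of the median difference were added after seeing the data. Alternatives were other offsets, filters, normalisation, array weights, array sets, cattle groups and arrays left out.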

Additional observations from a re-analysis of the deposited data

How the results depend on the processing

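The number of the 6 probe sets called lower in yak and in buffalo was 6, and 5 to 6 when 1 array was left out and under the other alternatives run. For castrated against intact males it was 1, and 2 with array weights and with all 15 arrays in the fit (the brighter LAMA4 probe set beside SPARC), and 1 to 2 when 1 array was left out (2 with NID2, without intact male 3). For females against intact males it was 2, but 4 with array weights, and 1 to 2 when 1 array was left out (1 without intact male 2 or any 1 female, where NID2 did not pass). The counts against intact males rest on values that chose the genes and are no sign of stability. For buffalo against yak it was 0, and 1 after quantile normalisation, and 0 to 1 when 1 array was left out. No probe set was called higher in any fit, and 0 were called between females and castrated males when 1 array was left out. The NID2 difference of buffalo minus yak, -0.04, ran from -0.28 to 0.41 when 1 array was left out, the last without buffalo 1 (adjusted p = 0.192). SPARC kept its direction and its call in yak and in buffalo in every alternative run, with differences of -3.51 to -1.34 in yak and -3.93 to -1.70 in buffalo, the largest against intact males. The cause of these changes was not tested. Replicate numbers mark different animals in each group, and same-numbered arrays did not deviate together (r from -0.33 to 0.15, median 0.00, over 30 pairs). With the replicate block, 1, 3, 0, 6, 6 and 0 of the 6 were called lower in castrated against intact males, females against intact males, females against castrated males, yak, buffalo, and buffalo against yak. Signal near or below the filter value limits the dimmer LAMA4 probe set and SMOC2 in buffalo and MMP9 in yak. The 3 arrays a group limit all tests.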

Other observations

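Within a group, the 6 probe sets often ranked the animals alike. Castrated male 2 was the highest of the castrated males with 6 of 6 probe sets and castrated male 3 the lowest with 6 of 6. Yak 2 was the highest of the yak with 6 of 6. Intact male 3 was the lowest of the intact males and buffalo 1 the lowest of the buffalo with 5 of 6 each. The females had no such order, with female 3 highest 3 times and lowest 2 times. The endothelial marker sums of castrated males 2 and 3 were 4086 and 3192, and yak 2 had 4086, against 3137 and 3595 in yak 1 and 3. Intact male 3 lay between the others at 3629, and buffalo 1 had the highest sum of the buffalo at 3397.

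After subtraction of group means, SPARC varied with the brighter COL4A1 probe set across the 15 arrays at r = 0.87 and with NID2 at r = 0.76. SPARC varied with the brighter and dimmer LAMA4 probe sets at 0.40 and 0.56. The 2 LAMA4 probe sets stood at 0.92 and the 2 COL4A1 probe sets at 0.59. These values describe arrays that share a platform and a scaling.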
